A study of Mus musculus with 13 samples.

Results

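The synaptic vesicle and release machinery was followed across neuroblastomas of transgenic mice and normal adrenal glands through 36 genes out of the 18194 measured. They are genes for calcium sensors, SNARE fusion proteins and their regulators, vesicle membrane and clustering proteins, Rab3 GTPases, active zone scaffolds, neurexins and proteins that retrieve membrane. They were chosen by function, but with earlier results of these data known. Counts of them set beside all genes are therefore descriptive. Each gene was read from its brightest probe set, by the mean of the 13 arrays, and all 36 were on the array. The study measured tumours carrying both MYCN and mutated ALK (3 arrays, called double transgenic), tumours driven by mutALK alone (3 arrays), tumours driven by MYCN alone (4 arrays) and adrenal glands of normal genotype (3 arrays). All mice had the C57BL/6 background, both transgenes were expressed specifically in the neural crest, from which sympathetic neurons and chromaffin cells arise, and the tumour-bearing animals were killed once a tumour could be felt. The promoter of the transgenes, the form of the ALK mutation, and the age and sex of the animals are not given in the sources used here. Nor do the labels say that the arrays of a group come from separate animals, and 2 mutALK arrays and 2 MYCN arrays share a title number, so p-values here reflect only how these samples spread, which may be partly technical. Whether the double transgenic arrays were hybridised and summarised together with the others is not given in the sources used here. If they were not, run and genotype cannot be told apart in any comparison with them.

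A neuron releases transmitter when a vesicle, loaded and docked at the active zone, fuses with the plasma membrane. Fusion is driven by SNARE proteins on the vesicle and the plasma membrane, is held ready by complexins and Unc13 proteins, and is set off by calcium binding to synaptotagmins; the membrane is then retrieved with amphiphysin, dynamin and synaptojanin. Sympathetic neurons use this machinery for small and dense-core vesicles, and adrenal chromaffin cells use much of it to release catecholamines from chromaffin granules.

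Promoter sequences were available for 29 of the 36 genes (38 windows of 300 bases, 250 before and 50 after each start, RefSeq, GRCm38.p6). They were searched on both strands for the left and right arms of the RE1 element (TTCAGCACC and GACAGCGCC), the site of REST, which keeps many presynaptic genes silent outside neurons; for the cAMP response element TGACGTCA; for the E-box CACGTG, which MYC proteins bind together with MAX; and for the GC box GGGCGG. The left RE1 arm stood in 2 of the 38 windows (Syn1 and Unc13a), against 0.371% of all 32851 promoter windows, and the right arm in 1 (Unc13a), against 0.326%. The cAMP response element stood in 1 window (Syn1), against 1.79%, the E-box in 2 (Nsf and Sv2b), against 7.15%, and the GC box in 22, against 35.7%. No different motifs overlapped in a window. These are matches of letters, not evidence of binding. The 250 bases before the start are shown for Syn1 and Nsf, whose capitals mark the motifs, and for Sncg and Dnm3, the genes with the largest falls in MYCN tumours against adrenal gland, whose windows held neither RE1 arm, no cAMP response element and no E-box; the GC box is not marked. In Syn1, at chrX:20920919-20921168 on the minus strand, the left RE1 arm began 232 bases before the start and the cAMP response element 159 bases before it. In Nsf, at chr11:103954057-103954306 on the minus strand, the E-box began 174 bases before the start. Sncg lies at chr14:34374670-34374919 and Dnm3 at chr1:162478035-162478284, both on the minus strand. The Dnm3 bases lie within the annotated gene, at chr1:161982450-162478321, so the start used is not its outermost start. The Unc13a site, at chr8:71671727-71671753 on the minus strand, is shown because both RE1 arms (capitals) stood in it, read on the opposite strand, with 9 bases between them; it covers bases 5 to 31 after the start.
Syn1: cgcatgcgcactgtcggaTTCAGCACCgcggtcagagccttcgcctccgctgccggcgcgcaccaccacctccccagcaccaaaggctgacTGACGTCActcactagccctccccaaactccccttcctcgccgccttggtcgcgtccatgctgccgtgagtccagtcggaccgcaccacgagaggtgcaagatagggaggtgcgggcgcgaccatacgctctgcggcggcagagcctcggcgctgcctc
Nsf: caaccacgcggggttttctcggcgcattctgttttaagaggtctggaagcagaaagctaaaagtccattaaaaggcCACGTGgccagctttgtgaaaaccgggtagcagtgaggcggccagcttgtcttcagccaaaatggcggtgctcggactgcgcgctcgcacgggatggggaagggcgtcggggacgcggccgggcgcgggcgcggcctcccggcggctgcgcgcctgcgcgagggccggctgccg
Sncg: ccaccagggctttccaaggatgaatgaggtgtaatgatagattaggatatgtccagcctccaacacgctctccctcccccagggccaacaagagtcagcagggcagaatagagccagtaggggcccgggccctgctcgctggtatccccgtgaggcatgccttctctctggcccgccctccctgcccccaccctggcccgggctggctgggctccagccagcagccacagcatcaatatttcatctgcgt
Dnm3: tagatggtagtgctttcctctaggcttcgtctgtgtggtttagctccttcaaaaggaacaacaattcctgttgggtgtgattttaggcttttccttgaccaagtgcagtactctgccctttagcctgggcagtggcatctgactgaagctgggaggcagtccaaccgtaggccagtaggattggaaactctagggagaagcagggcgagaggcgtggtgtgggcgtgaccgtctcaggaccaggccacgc
Unc13a: GGCGCTGTCcgcgcccccGGTGCTGAA

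All values are log2 levels after RMA summarisation, which ran from 2.04 to 14.46 with array medians of 5.8 to 5.9, and arrays of 1 group correlated with each other at 0.938 to 0.991 over all genes. The labelled tissue was borne out by the 10 adrenal cortex markers, whose mean log2 level was 5.41 to 7.11 in double transgenic, 5.47 to 5.59 in mutALK and 5.67 to 5.81 in MYCN tumours, against 11.53 to 12.92 in adrenal glands. The 7.11 belonged to double transgenic 1, the highest double transgenic array for all of these markers but Cyp11b2. Hsd3b1 had a log2 level of 9.43 there, against 3.59 and 3.89 in double transgenic 2 and 3, and Cyp11a1 had 6.27, against 3.71 and 4.28. The part of these cortex transcripts in the results was not tested. One adrenal array, adrenal 2, stood apart in the 36 members. It was the highest adrenal array for 31 of the 36 members, against 41.7% of all genes. It lay by over 1 log2 unit above both others for 25, against 6.93% of all genes. It also lay above every MYCN tumour array for 26 members and above every tumour array for 6. For these counts against tumour arrays the shares of all genes are not given, so they have no baseline. In the same array 10 of 10 neuron markers and 8 of 8 Schwann cell markers were the highest of the adrenal arrays, with a mean log2 neuron level of 10.18 against 5.96 and 5.19 in adrenal 1 and 3, and a Schwann cell level of 9.22 against 7.11 and 6.86. Among the neuron markers Tubb3, a neuronal tubulin, had a log2 level of 10.97 in adrenal 2, against 4.47 and 3.39, while Dcx, a protein of migrating young neurons, had 4.49, against 3.79 and 3.68. The 9 chromaffin cell markers had a mean log2 level of 10.74 in adrenal 2, against 10.78 and 9.65, but did not move together. Dbh, Slc18a2, Ddc and Phox2a were highest of the adrenal arrays in adrenal 2. Pnmt, Chga, Chgb and Slc18a1 were lowest there, and Th lay between the other adrenal arrays. The 6 fat markers had a mean log2 level of 13.09 in adrenal 2, against 12.18 and 11.60, and 5 of them were highest there. Liver transcripts were high as well, at a mean log2 level of 11.25, against 5.90 and 5.93, and were high in 4 tumour arrays too, which were double transgenic 1 (12.45), mutALK 1 (11.25), mutALK 3 (9.88) and MYCN 2 (9.13). The part these transcripts play in the results was not tested; counts are given with all arrays and without these arrays. Since each array is bulk tissue, fewer cells of a type and less RNA per cell cannot be told apart.

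**Figure D1:**
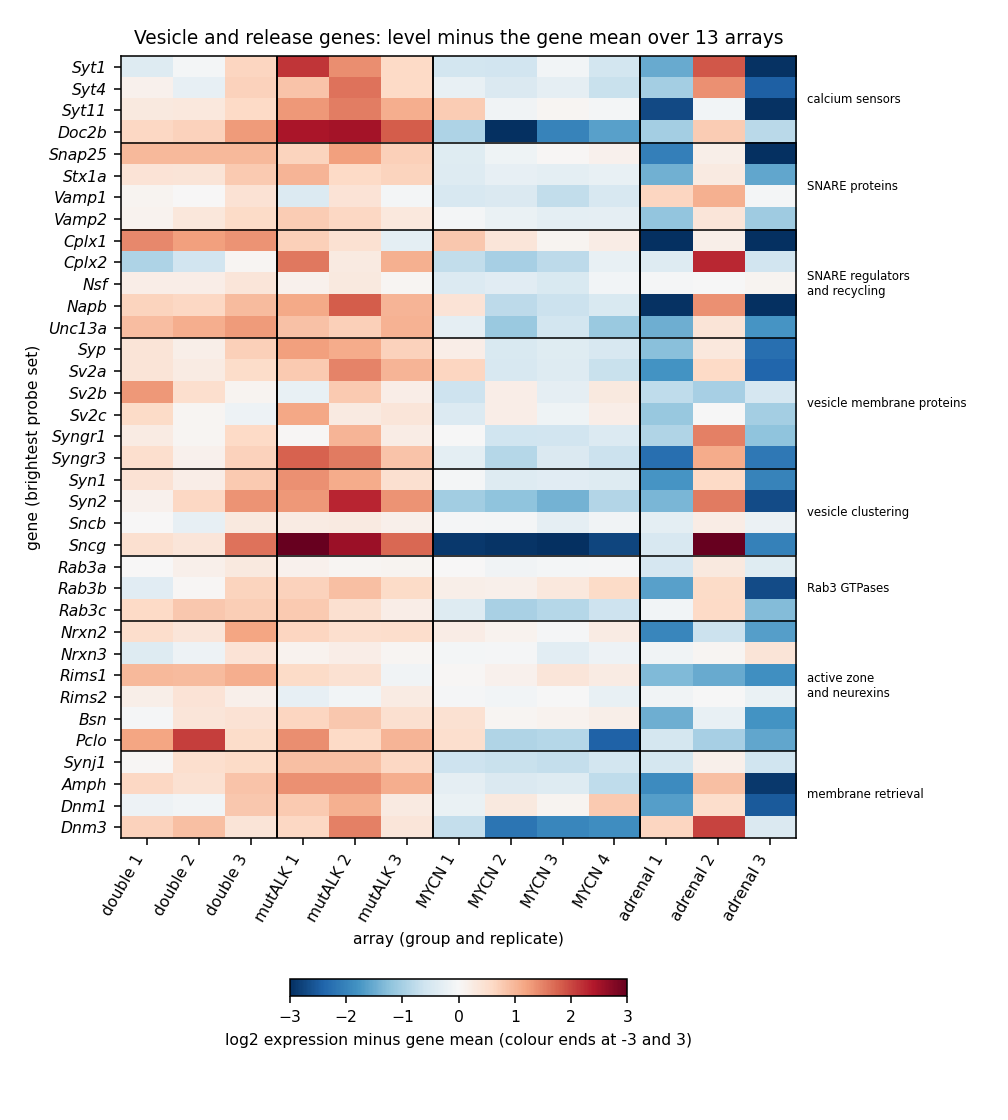
Log2 level of each of the 36 genes minus its mean over the 13 arrays, with genes in rows grouped by role and arrays in columns by group; colours end at -3 and 3. Adrenal 2 is warm for most genes where adrenal 1 and 3 are blue, and Sncg, Doc2b and Dnm3 are blue in the MYCN tumours.

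The first question was how far each kind of tumour differs from the normal adrenal gland. In double transgenic tumours 18 of the 36 genes were called higher and 0 lower, where called means a limma adjusted p under 0.05; over all genes 24.3% were called higher and 24.2% lower. In mutALK tumours 23 were called higher and 0 lower, against 21.3% and 21% of all genes. In MYCN tumours 7 were called higher and 5 lower, against 25.3% and 24.8% of all genes. The median log2 difference from adrenal gland over the 36 genes was 1.37 in double transgenic, 1.85 in mutALK and 0.43 in MYCN tumours, while the medians over all genes were -0.03, 0.00 and -0.02. The groups did not overlap, with the tumours above, for 12 genes in double transgenic (26.5% of all genes), 15 in mutALK (24%) and 3 in MYCN tumours (26.8%); they did not overlap with the tumours below for 0, 0 and 4 genes (26.7%, 24.1% and 26.7%).

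Without adrenal 2 the counts were larger. Double transgenic tumours then had 30 genes called higher and 0 lower, against 24.3% and 24.1% of all genes, and a median log2 difference of 2.05. In mutALK tumours the counts were 30 and 0, against 21.2% and 21.6%, with a median of 2.32. In MYCN tumours they were 21 and 4, against 25.3% and 24.3%, with a median of 0.97. Leaving out adrenal 1 or adrenal 3 instead left 10 genes (27.8%) called higher in double transgenic tumours each time. This is near the 22% and 22.9% of all genes called higher without adrenal 1 and adrenal 3. The calls lost were those of Syn1, Syp, Vamp2, Sv2c, Rab3c, Rims2, Synj1 and Amph, with adjusted p of 0.05 to 0.16. In mutALK tumours 15 (41.7%) were left without adrenal 1, against 18.7% of all genes. The calls of Syn2, Vamp2, Sv2b, Rab3b, Cplx1, Napb, Syngr3 and Dnm1 were lost (adjusted p of 0.051 to 0.103). Without the 5 arrays with high liver transcripts, which leaves 1 mutALK array that is assumed to vary like the other groups, the counts were 29 and 0 in double transgenic, 27 and 0 in mutALK and 22 and 3 in MYCN tumours, when 22.9%, 17.1% and 24.1% of all genes were called higher and 23.4%, 16.8% and 23.3% lower.

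**Figure D2:**
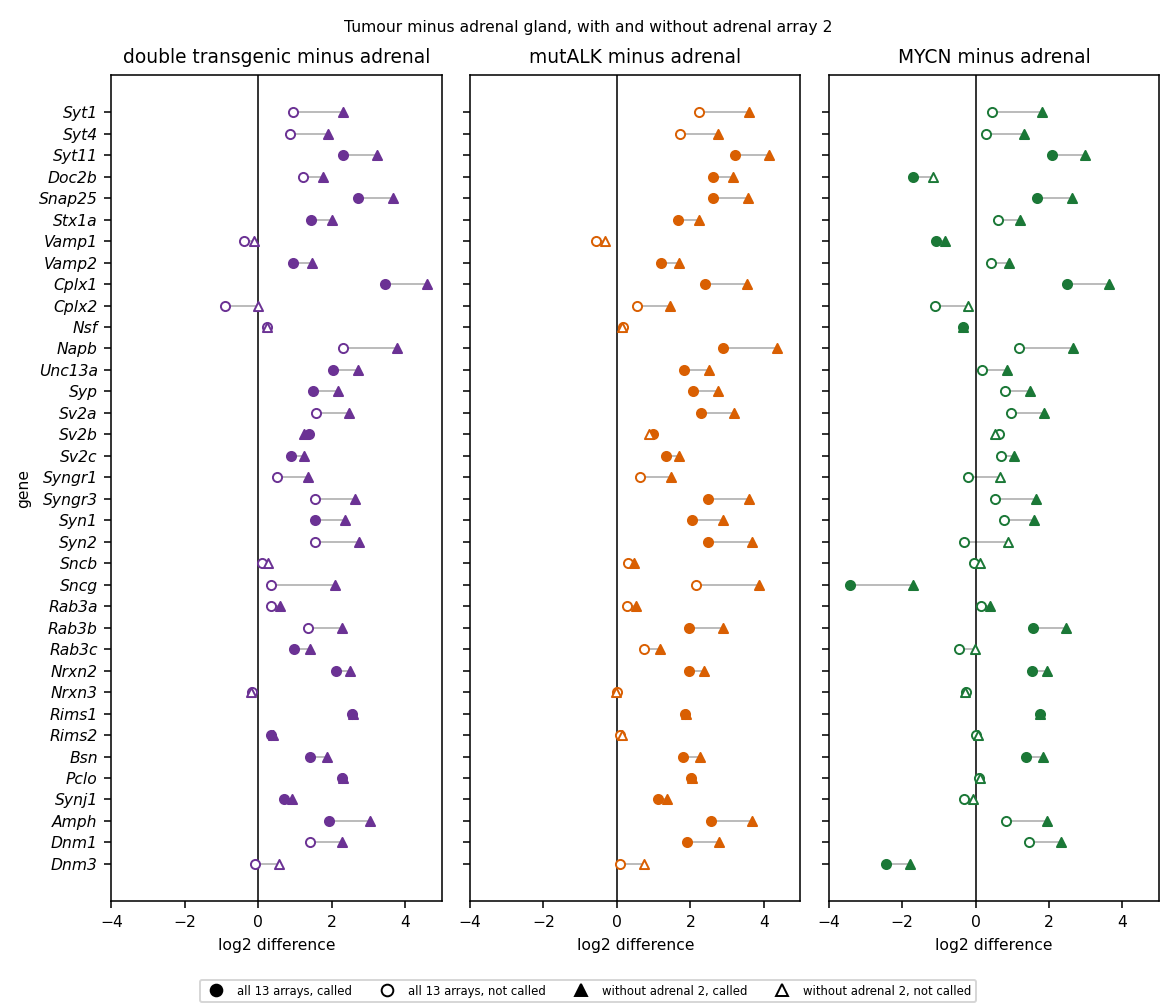
Log2 difference of each gene in double transgenic, mutALK and MYCN tumours from adrenal gland, as circles with all 13 arrays and as triangles without adrenal 2; filled symbols were called. Most triangles lie to the right of their circles, and Cplx1 has the largest difference in double transgenic tumours at 3.46, which is 4.61 without adrenal 2.

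The second question was how the tumours differ with their driver. Against MYCN tumours, mutALK tumours had 11 of the 36 genes called higher and 0 lower, where 13.6% of all genes were called higher and 17.2% lower, and double transgenic tumours had 9 called higher and 0 lower, where 6.16% and 6.66% of all genes were. Between double transgenic and mutALK tumours 1 gene, Rims1, was called higher in double transgenic tumours and 0 lower, where 8.39% and 6.03% of all genes were called. The groups did not overlap for 31 genes with mutALK above MYCN (19% of all genes), for 22 with double transgenic above MYCN (14.3%), and between double transgenic and mutALK tumours for 2 with double transgenic above (16.9%) and 10 below (16%). The median log2 difference over the 36 genes was 1.10 for mutALK minus MYCN, 0.71 for double transgenic minus MYCN and -0.32 for double transgenic minus mutALK; over all genes it was 0.00, -0.03 and -0.02. In the order of the 3 tumour means, mutALK was highest, double transgenic next and MYCN lowest for 22 genes, and double transgenic was highest, mutALK next and MYCN lowest for 11. The shares of all genes with these orders are not given, so the orders only describe the 36 genes. MYCN was not the lowest tumour mean for Rab3b, Dnm1 and Cplx1, whose differences between tumours were not called.

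One spread per gene is estimated from all 13 arrays, so adrenal 2 widens the errors between tumours too, although their means stay the same. Without it 24 genes were called higher in mutALK than in MYCN tumours and 0 lower (16.7% and 19.2% of all genes), 19 and 0 in double transgenic than in MYCN tumours (9.28% and 9.24%), and 2 and 4 in double transgenic than in mutALK tumours (11.4% and 8.74%). With only the 10 tumour arrays, a setting chosen after the data were seen, the counts were 24 and 0 (16% and 18.5%), 20 and 0 (8.74% and 8.22%), and 2 and 6 (10.1% and 7.6%). Leaving out adrenal 3 raised the counts to 15 (41.7%) for mutALK above MYCN and 10 (27.8%) for double transgenic above MYCN tumours, against 13.8% and 6.32% of all genes. Leaving out some other arrays lowered them: double transgenic above MYCN tumours had 4 genes (11.1%) without double transgenic 2 and 5 (13.9%) without MYCN 2, against 4.04% and 3.4% of all genes. The count for mutALK above MYCN tumours was 7 (19.4%) without mutALK 1, mutALK 2 or MYCN 2, against 11.3%, 10.3% and 10.8% of all genes. For double transgenic above mutALK tumours it was 0 without any 1 of the double transgenic arrays, mutALK 2 or mutALK 3, against 3.55% to 9.17% of all genes. Without the 5 arrays with high liver transcripts, again with 1 mutALK array assumed to vary like the other groups, they were 15 and 0 (11% and 13%), 11 and 0 (5.18% and 5.72%), and 0 and 1 (5.28% and 4.62%). Neuron markers moved with the members: the mean log2 level of the 10 markers was 11.80 to 12.23 in double transgenic, 12.27 to 12.54 in mutALK and 10.49 to 10.96 in MYCN tumours, and that of the 36 members was 9.16 to 9.48, 9.39 to 9.76 and 8.24 to 8.58. Of the 10 neuron markers 9, all but Elavl3, had a higher mean in mutALK than in MYCN tumours. Prph differed most, with log2 levels of 12.67 to 13.02 in mutALK and 3.73 to 4.35 in MYCN tumours. The 9 chromaffin cell markers had mean log2 levels of 10.27 to 10.76 in double transgenic, 11.21 to 11.68 in mutALK and 9.60 to 10.08 in MYCN tumours, and the 8 Schwann cell markers 7.34 to 7.54, 6.98 to 8.54 and 6.09 to 6.56. Of the Schwann cell markers, Mbp was lower in mutALK than in MYCN tumours. In double transgenic tumours 7 of the 9 chromaffin cell markers, all but Chgb and Phox2a, had a higher mean than in MYCN tumours. The same held for 6 of the 8 Schwann cell markers, all but Mbp and Pmp22. The 6 fat markers as a set ran against these lists, with mean log2 levels of 5.58 to 6.04, 6.52 to 8.24 and 6.72 to 10.11, and 0 of them had a double transgenic mean above the MYCN mean. The part of these cell types in the differences between tumours was not tested.

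**Figure D3:**
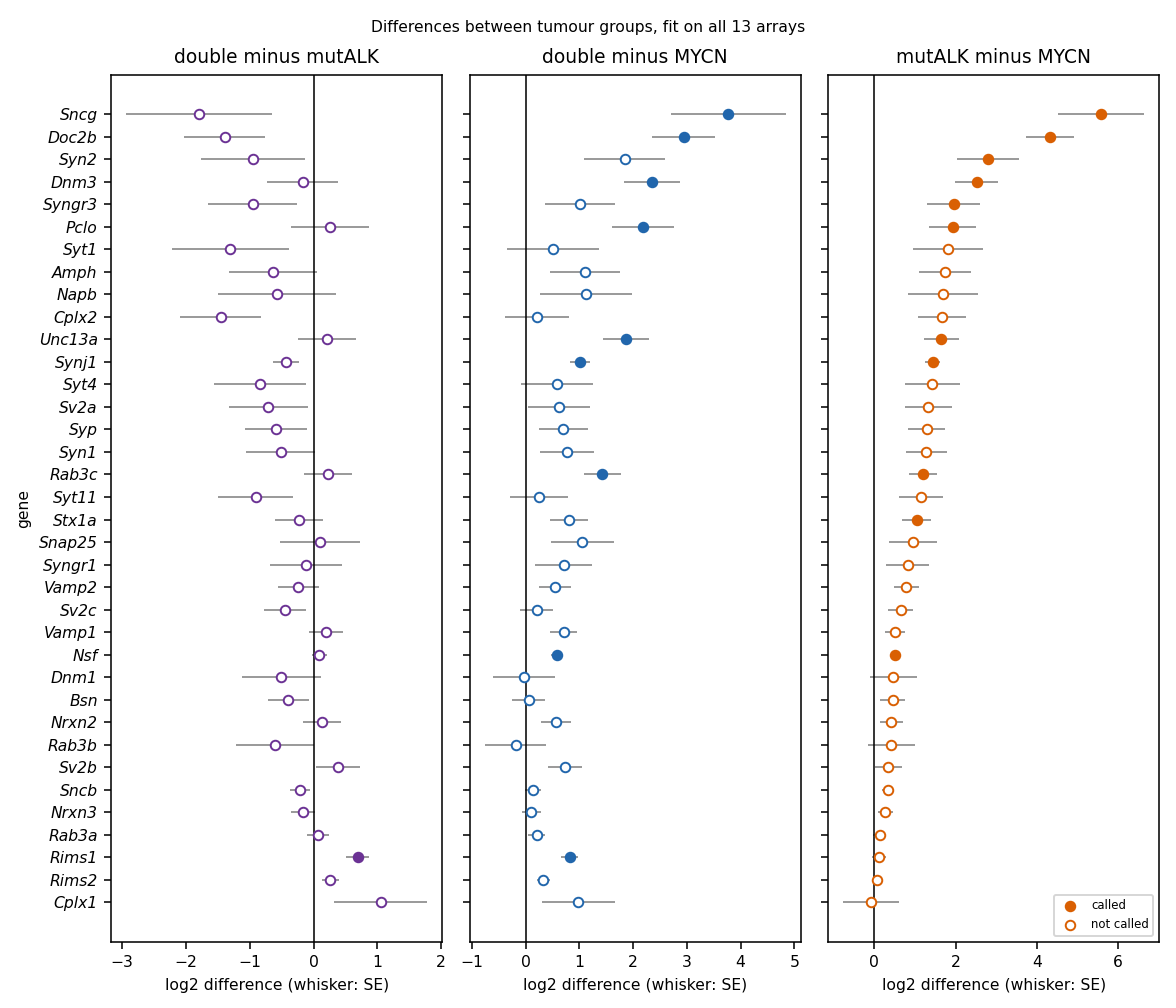
Log2 difference of each gene between tumour groups with its SE as a whisker, for double transgenic minus mutALK, double transgenic minus MYCN and mutALK minus MYCN; filled points were called. Sncg (5.57) and Doc2b (4.33) have the largest measured differences between mutALK and MYCN tumours, and only Rims1 was called between double transgenic and mutALK tumours.

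Among the calcium sensors, Doc2b, a high-affinity sensor of spontaneous and asynchronous release, separated the tumours most. Doc2b had log2 levels of 9.50, 9.57 and 10.16 in double transgenic, 11.33, 11.37 and 10.69 in mutALK and 7.95, 5.15, 6.86 and 7.24 in MYCN tumours, against 7.85, 9.63 and 8.08 in adrenal glands. All mutALK arrays lay above all double transgenic arrays, and these above all MYCN arrays, while the adrenal arrays overlapped both the double transgenic and the MYCN tumours. The log2 difference was 4.33 ± 0.59 (SE; adjusted p = 0.000289) for mutALK minus MYCN tumours and 2.94 ± 0.59 (SE; adjusted p = 0.00939) for double transgenic minus MYCN tumours. Both were called under every alternative. MYCN 2 lay under the array medians, so the sizes are not given as folds. The gaps were smaller on the dimmer Doc2b probe set. It had mean log2 levels of 6.67 in double transgenic, 7.79 in mutALK and 5.17 in MYCN tumours, against 6.08 in adrenal glands. Doc2b was also higher in mutALK tumours than in adrenal gland, with a log2 difference of 2.61 ± 0.63 (SE; adjusted p = 0.00563), and lower in MYCN tumours, with -1.72 ± 0.59 (SE; adjusted p = 0.0297); this fall was not called without adrenal 2 (-1.16, adjusted p = 0.135), MYCN 2 or MYCN 3. Syt11, a synaptotagmin that does not bind calcium, was the sensor gene with the largest rise over adrenal gland. Syt11 had log2 levels of 11.31, 11.32 and 11.60 in double transgenic, 12.32, 12.54 and 12.09 in mutALK and 11.77, 10.89, 11.06 and 10.94 in MYCN tumours, against 8.31, 10.92 and 8.04 in adrenal glands. All double transgenic and mutALK arrays, and 3 of 4 MYCN arrays, lay above adrenal 2, and all tumour arrays lay far above adrenal 1 and 3. Its log2 difference from adrenal gland was 2.32 ± 0.58 (SE; adjusted p = 0.00602) in double transgenic, 3.23 ± 0.58 (SE; adjusted p = 0.000927) in mutALK and 2.07 ± 0.55 (SE; adjusted p = 0.00739) in MYCN tumours. Syt1, the fast calcium sensor of synaptic release, and Syt4, a synaptotagmin of dense-core vesicles, were not called in any comparison, with log2 differences from adrenal gland of 0.94 and 0.88 in double transgenic, 2.24 and 1.72 in mutALK and 0.44 and 0.29 in MYCN tumours. Without adrenal 2 both were called higher in all 3 tumour groups than in adrenal gland (Syt1 log2 differences of 2.30, 3.61 and 1.80).

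Of the 4 SNARE genes, Snap25, the plasma membrane SNARE that binds syntaxin, rose in all 3 tumour groups over adrenal gland. Snap25 had log2 levels of 12.66, 12.66 and 12.66 in double transgenic, 12.36, 12.91 and 12.40 in mutALK and 11.32, 11.56, 11.72 and 11.81 in MYCN tumours, against 9.64, 11.85 and 8.32 in adrenal glands. The double transgenic arrays were nearly identical, all double transgenic and mutALK arrays lay above all others, and the MYCN arrays lay between adrenal 2 and the other adrenal arrays. The log2 difference from adrenal gland was 2.72 ± 0.63 (SE; adjusted p = 0.00366) in double transgenic, 2.62 ± 0.63 (SE; adjusted p = 0.0056) in mutALK and 1.67 ± 0.59 (SE; adjusted p = 0.0345) in MYCN tumours. The last call was lost without MYCN 2, MYCN 3, MYCN 4, adrenal 1 or adrenal 3 (adjusted p up to 0.154). Stx1a, the syntaxin of the plasma membrane, was the SNARE gene called between tumours. Stx1a had log2 levels of 9.99, 9.98 and 10.37 in double transgenic, 10.59, 10.18 and 10.24 in mutALK and 9.20, 9.35, 9.30 and 9.36 in MYCN tumours, against 8.15, 9.86 and 8.03 in adrenal glands. Double transgenic and mutALK arrays overlapped each other and lay above all MYCN and adrenal arrays. For mutALK minus MYCN tumours the log2 difference was 1.04 ± 0.35 (SE; adjusted p = 0.0435), a call lost without any 1 of the 10 tumour arrays (adjusted p up to 0.14), and for double transgenic minus MYCN tumours it was 0.81 ± 0.35 (SE; adjusted p = 0.165). Vamp2, the vesicle SNARE of most synapses, was higher than in adrenal gland in double transgenic and mutALK tumours (log2 differences of 0.96 and 1.20). The first call was lost without double transgenic 2, double transgenic 3, adrenal 1 or adrenal 3 (adjusted p up to 0.123). Vamp1, its relative at fast motor and sensory synapses, was lower in MYCN tumours than in adrenal gland, with a log2 difference of -1.09 ± 0.25 (SE; adjusted p = 0.00349). Vamp1 had log2 levels of 6.53, 6.45 and 6.89 in double transgenic, 6.03, 6.86 and 6.39 in mutALK and 5.96, 6.02, 5.70 and 5.97 in MYCN tumours, against 7.10, 7.51 and 6.39 in adrenal glands. All MYCN arrays lay below all others, the closest being mutALK 1.

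Genes that prepare or recycle SNARE complexes did not move as 1 block. Cplx1, a complexin that clamps and aids fusion, had the largest rise over adrenal gland of all 36 genes in double transgenic and in MYCN tumours. Cplx1 had log2 levels of 12.22, 12.00 and 12.12 in double transgenic, 11.48, 11.22 and 10.48 in mutALK and 11.59, 11.13, 10.85 and 10.98 in MYCN tumours, against 7.26, 10.94 and 7.75 in adrenal glands. Each double transgenic array lay above all others, while mutALK and MYCN arrays overlapped each other and adrenal 2. The log2 difference from adrenal gland was 3.46 ± 0.73 (SE; adjusted p = 0.0019) in double transgenic tumours, 2.41 ± 0.73 (SE; adjusted p = 0.0188) in mutALK and 2.49 ± 0.68 (SE; adjusted p = 0.00908) in MYCN tumours. The call in mutALK tumours was lost without mutALK 1, mutALK 2, adrenal 1 or adrenal 3 (adjusted p up to 0.0811). Between double transgenic and mutALK tumours the log2 difference of 1.05 ± 0.73 (SE) was not called (adjusted p = 0.386), but it was without adrenal 2 (adjusted p = 0.0192). Cplx2, the other complexin, pointed the other way, with a log2 difference of -1.45 ± 0.63 (SE; adjusted p = 0.154; without adrenal 2 adjusted p = 0.0146), and was called in no comparison with all arrays.

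Unc13a, the priming factor that opens syntaxin, was higher in both ALK-bearing tumours than in MYCN tumours. Unc13a had log2 levels of 7.87, 8.05 and 8.22 in double transgenic, 7.84, 7.67 and 7.99 in mutALK and 6.67, 5.84, 6.40 and 5.83 in MYCN tumours, against 5.49, 7.34 and 5.17 in adrenal glands. Double transgenic and mutALK arrays overlapped each other and lay above all MYCN and adrenal arrays. Its log2 difference was 1.65 ± 0.42 (SE; adjusted p = 0.0115) for mutALK minus MYCN tumours and 1.86 ± 0.42 (SE; adjusted p = 0.0159) for double transgenic minus MYCN tumours, the second lost without double transgenic 2, double transgenic 3 or MYCN 2 (adjusted p up to 0.0643). Both were lost with arrays that share a title number averaged, the first at a limma adjusted p of 0.0614. Unc13a was also called higher than in adrenal gland in double transgenic and mutALK tumours (log2 differences of 2.05 and 1.83). Nsf, the ATPase that takes spent SNARE complexes apart, showed small but tight differences on its brightest probe set. Nsf had log2 levels of 9.69, 9.70 and 9.87 in double transgenic, 9.63, 9.80 and 9.56 in mutALK and 9.07, 9.15, 9.03 and 9.42 in MYCN tumours, against 9.47, 9.49 and 9.57 in adrenal glands. All MYCN arrays lay below all others. For Nsf the log2 difference was 0.50 ± 0.11 (SE; adjusted p = 0.00513) for mutALK minus MYCN, 0.59 ± 0.11 (SE; adjusted p = 0.00693) for double transgenic minus MYCN and -0.34 ± 0.11 (SE; adjusted p = 0.0223) for MYCN tumours minus adrenal gland, the last lost without MYCN 1, MYCN 3 or adrenal 3 (adjusted p up to 0.0733). All these calls were lost with the mean of all probe sets, and the first and last with each array centred on its median. The next brightest Nsf probe set had mean log2 levels of 7.97 in double transgenic, 8.35 in mutALK and 7.91 in MYCN tumours, against 8.02 in adrenal glands. Napb, the SNAP adaptor through which Nsf acts, had its largest call in mutALK tumours. Napb had log2 levels of 10.07, 10.01 and 10.34 in double transgenic, 10.53, 11.20 and 10.42 in mutALK and 9.80, 8.60, 8.75 and 8.93 in MYCN tumours, against 6.44, 10.76 and 6.28 in adrenal glands. Adrenal 2 lay within the mutALK range and the other adrenal arrays far below all tumours. The log2 difference from adrenal gland was 2.89 ± 0.92 (SE; adjusted p = 0.0245) in mutALK tumours, and 2.31 in double transgenic and 1.19 in MYCN tumours, where it was not called; without adrenal 2 all 3 were called, at 4.36, 3.78 and 2.66. The mutALK call was lost without mutALK 2, adrenal 1 or adrenal 3 (adjusted p up to 0.103).

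Of the 6 vesicle membrane genes, 3 were called higher than in adrenal gland in double transgenic, 5 in mutALK and 0 in MYCN tumours, where 24.3%, 21.3% and 25.3% of all genes were. Syp, synaptophysin, the most abundant protein of the synaptic vesicle membrane, had the largest call in double transgenic tumours. Syp had log2 levels of 8.38, 8.18 and 8.71 in double transgenic, 9.23, 9.12 and 8.69 in mutALK and 8.20, 7.54, 7.65 and 7.53 in MYCN tumours, against 6.74, 8.31 and 5.75 in adrenal glands. Tumour arrays of all 3 groups lay above adrenal 1 and 3 but not all above adrenal 2. Its log2 difference from adrenal gland was 1.49 ± 0.49 (SE; adjusted p = 0.0246) in double transgenic, 2.08 ± 0.49 (SE; adjusted p = 0.00478) in mutALK and 0.80 ± 0.46 (SE; adjusted p = 0.179) in MYCN tumours. In double transgenic tumours the call was lost without double transgenic 1, double transgenic 3, adrenal 1 or adrenal 3 (adjusted p up to 0.0898). Syngr3, a synaptogyrin, had the largest call in mutALK tumours and was the vesicle membrane gene called between tumours. Syngr3 had log2 levels of 9.51, 9.13 and 9.69 in double transgenic, 10.77, 10.57 and 9.85 in mutALK and 8.71, 8.14, 8.57 and 8.35 in MYCN tumours, against 6.74, 10.12 and 6.85 in adrenal glands. The mutALK arrays lay above the double transgenic arrays and these above the MYCN arrays, with adrenal 2 inside the mutALK range. For Syngr3 the log2 difference was 2.49 ± 0.70 (SE; adjusted p = 0.0128) for mutALK tumours minus adrenal gland and 1.96 ± 0.65 (SE; adjusted p = 0.041) for mutALK minus MYCN tumours, the second lost without any 1 of the tumour arrays other than mutALK 3 (adjusted p up to 0.125). The SV2 glycoproteins Sv2a, Sv2b and Sv2c had log2 differences from adrenal gland of 1.59, 1.38 and 0.88 in double transgenic, 2.30, 0.99 and 1.33 in mutALK and 0.97, 0.65 and 0.68 in MYCN tumours; all 3 were called in mutALK tumours, Sv2b and Sv2c in double transgenic tumours and none in MYCN tumours. The Sv2c call in double transgenic tumours was lost without 8 of the 13 arrays in turn (adjusted p up to 0.16). For Sv2b the call in mutALK tumours was lost without mutALK 2, mutALK 3 or adrenal 1 (adjusted p up to 0.143) and without adrenal 2 (0.87, adjusted p = 0.101); adrenal 2 was its lowest adrenal array. Syngr1 was called in no comparison with all arrays, with log2 differences from adrenal gland of 0.51, 0.63 and -0.19 in double transgenic, mutALK and MYCN tumours. Without adrenal 2 these were 1.36, 1.48 and 0.66, and the rises in double transgenic and mutALK tumours were called.

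The vesicle clustering genes held the largest measured difference between tumours. Sncg encodes gamma-synuclein, an abundant protein of peripheral neurons and their terminals. Sncg had log2 levels of 8.25, 8.15 and 9.41 in double transgenic, 11.38, 10.33 and 9.49 in mutALK and 4.89, 4.83, 4.58 and 5.02 in MYCN tumours, against 7.30, 11.69 and 5.76 in adrenal glands. The MYCN arrays lay together below all others, and the mutALK arrays lay above the double transgenic arrays. The adrenal arrays spread from just above the MYCN tumours to above all tumours. The log2 difference was 5.57 ± 1.06 (SE; adjusted p = 0.00222) for mutALK minus MYCN tumours and 3.77 ± 1.06 (SE; adjusted p = 0.0394) for double transgenic minus MYCN tumours. The MYCN levels lie under the array medians and are not shown to be above background, so the sizes may be understated and are not given as folds. The first difference was called under every alternative and the second lost without any 1 of the double transgenic or MYCN arrays or mutALK 2 (adjusted p up to 0.14). In MYCN tumours Sncg was lower than in adrenal gland, by -3.42 ± 1.06 (SE; adjusted p = 0.0184) as a log2 difference, and without adrenal 2 the difference was -1.70, adjusted p = 0.0236. For double transgenic minus mutALK tumours it was -1.80 ± 1.14 (SE; adjusted p = 0.341), called without adrenal 2 (adjusted p = 0.0336).

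Syn2, a synapsin that tethers vesicles in the reserve pool, followed the same order of means. Syn2 had log2 levels of 9.31, 9.80 and 10.51 in double transgenic, 10.48, 11.47 and 10.52 in mutALK and 8.13, 7.96, 7.75 and 8.29 in MYCN tumours, against 7.80, 10.73 and 6.48 in adrenal glands. The MYCN arrays lay below all other tumour arrays, and double transgenic and mutALK arrays overlapped slightly. For Syn2 the log2 difference was 2.79 ± 0.76 (SE; adjusted p = 0.0153) for mutALK minus MYCN tumours, 2.49 ± 0.81 (SE; adjusted p = 0.0274) for mutALK tumours minus adrenal gland and 1.84 ± 0.76 (SE; adjusted p = 0.142) for double transgenic minus MYCN tumours, the last not called. Without mutALK 2 the first was not called (adjusted p = 0.0682), and the second was lost without mutALK 2, adrenal 1 or adrenal 3 (adjusted p up to 0.105). The first and second were also lost with arrays that share a title number averaged. Syn1, the synapsin gene whose promoter is shown above, had the largest clustering call in double transgenic tumours over adrenal gland. Syn1 had log2 levels of 8.07, 7.82 and 8.41 in double transgenic, 9.00, 8.75 and 8.10 in mutALK and 7.57, 7.26, 7.29 and 7.24 in MYCN tumours, against 5.86, 8.22 and 5.62 in adrenal glands. All tumour arrays lay above adrenal 1 and 3, and adrenal 2 lay within the double transgenic and mutALK ranges. Its log2 difference from adrenal gland was 1.53 ± 0.54 (SE; adjusted p = 0.0339) in double transgenic, 2.05 ± 0.54 (SE; adjusted p = 0.00897) in mutALK and 0.77 ± 0.50 (SE; adjusted p = 0.237) in MYCN tumours. The rise in double transgenic tumours was not called without any 1 of the double transgenic arrays, adrenal 1 or adrenal 3 (adjusted p up to 0.138). Sncb, beta-synuclein, was called in no comparison with all arrays, and its log2 differences over the 6 comparisons lay between -0.21 and 0.34. Without adrenal 2 it was called higher in mutALK tumours than in adrenal gland (log2 difference of 0.46).

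The Rab3 GTPases, which bring vesicles to the active zone, split by gene. Rab3c was called between tumours. Rab3c had log2 levels of 10.34, 10.57 and 10.48 in double transgenic, 10.53, 10.23 and 9.95 in mutALK and 9.37, 8.78, 8.90 and 9.13 in MYCN tumours, against 9.66, 10.35 and 8.46 in adrenal glands. The double transgenic and mutALK arrays lay above all MYCN arrays, and the adrenal arrays spread across the tumours. The log2 difference was 1.19 ± 0.35 (SE; adjusted p = 0.021) for mutALK minus MYCN and 1.42 ± 0.35 (SE; adjusted p = 0.0214) for double transgenic minus MYCN tumours. The first was lost without mutALK 1, mutALK 2, MYCN 2 or MYCN 3 (adjusted p up to 0.0824) and the second without double transgenic 2, double transgenic 3, MYCN 2 or MYCN 3 (up to 0.0726). Both were also lost with the mean of all probe sets and with arrays that share a title number averaged. Over adrenal gland the log2 difference was 0.98 ± 0.37 (SE; adjusted p = 0.0467) in double transgenic tumours, lost without any 1 array other than adrenal 2 (adjusted p up to 0.151). Rab3b was the Rab3 gene called over adrenal gland in the single-driver tumours. Rab3b had log2 levels of 9.15, 9.53 and 10.17 in double transgenic, 10.20, 10.41 and 10.08 in mutALK and 9.69, 9.65, 9.82 and 10.07 in MYCN tumours, against 7.88, 10.08 and 6.82 in adrenal glands. The mutALK arrays lay just above the MYCN arrays, the double transgenic arrays overlapped both, and adrenal 2 lay among the tumours while adrenal 1 and 3 lay below. Its log2 difference from adrenal gland was 1.97 ± 0.61 (SE; adjusted p = 0.0216) in mutALK tumours, lost without mutALK 2, adrenal 1 or adrenal 3 (adjusted p up to 0.0785). It was 1.55 ± 0.57 (SE; adjusted p = 0.0406) in MYCN tumours, lost without any 1 array other than double transgenic 1, double transgenic 3 and adrenal 2 (adjusted p up to 0.194), and 1.36 ± 0.61 (SE; adjusted p = 0.0884) in double transgenic tumours. Rab3a, the main Rab3 of brain synapses, was called in no comparison with all arrays on its brightest probe set, with log2 differences between 0.07 and 0.34. Without adrenal 2 it was called higher than in adrenal gland in double transgenic, mutALK and MYCN tumours (log2 differences of 0.59, 0.52 and 0.38). The dimmer Rab3a probe set had mean log2 levels of 9.39 in double transgenic, 9.36 in mutALK and 9.02 in MYCN tumours, against 8.30 in adrenal glands.

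Among active zone genes, Rims1, a scaffold that ties Rab3 and calcium channels to the release site, had tight groups. Rims1 had log2 levels of 8.15, 8.13 and 8.26 in double transgenic, 7.74, 7.64 and 7.08 in mutALK and 7.21, 7.30, 7.53 and 7.42 in MYCN tumours, against 5.85, 5.66 and 5.35 in adrenal glands. All tumour arrays lay above all adrenal arrays, adrenal 2 included, and the double transgenic arrays lay above all mutALK and MYCN arrays. The log2 difference from adrenal gland was 2.56 ± 0.18 (SE; adjusted p = 8.74e-07) in double transgenic, 1.87 ± 0.18 (SE; adjusted p = 1.21e-05) in mutALK and 1.75 ± 0.17 (SE; adjusted p = 4.97e-06) in MYCN tumours. For double transgenic minus MYCN tumours it was 0.81 ± 0.17 (SE; adjusted p = 0.0102), called under every alternative, and for double transgenic minus mutALK tumours 0.69 ± 0.18 (SE; adjusted p = 0.0266), lost without any 1 of the double transgenic arrays, mutALK 2 or mutALK 3 (adjusted p up to 0.0716). Bsn, the scaffold bassoon, and Nrxn2, a neurexin that bridges to the postsynaptic cell, were also called over adrenal gland in each tumour group, with no overlap. Their log2 differences were 1.41 and 2.11 in double transgenic, 1.81 and 1.97 in mutALK and 1.36 and 1.55 in MYCN tumours, and none of these calls was lost under any alternative. Rims2, a relative of Rims1, had a log2 difference from adrenal gland of 0.35 ± 0.13 (SE; adjusted p = 0.0498) in double transgenic tumours, lost without 10 of the 13 arrays in turn (adjusted p up to 0.172; kept without mutALK 1, mutALK 3 and adrenal 2), and 0.09 and 0.02 in mutALK and MYCN tumours.

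Pclo, piccolo, the largest active zone scaffold, was the active zone gene called higher in both ALK-bearing tumours than in MYCN tumours. Pclo had log2 levels of 9.00, 9.90 and 8.37 in double transgenic, 9.23, 8.42 and 8.84 in mutALK and 8.32, 6.92, 6.96 and 5.41 in MYCN tumours, against 7.30, 6.84 and 6.27 in adrenal glands. The double transgenic and mutALK arrays lay above all MYCN arrays, although MYCN 1 came close to them and MYCN 4 lay far below the other MYCN arrays. Its log2 difference was 1.93 ± 0.57 (SE; adjusted p = 0.0242) for mutALK minus MYCN and 2.19 ± 0.57 (SE; adjusted p = 0.029) for double transgenic minus MYCN tumours. The first was lost without mutALK 1, mutALK 3 or MYCN 2 (adjusted p up to 0.087) and the second without double transgenic 1, double transgenic 2, MYCN 2, MYCN 3 or MYCN 4 (up to 0.117). Both were also lost with arrays that share a title number averaged. Over adrenal gland the log2 difference was 2.29 ± 0.61 (SE; adjusted p = 0.00859) in double transgenic, 2.03 ± 0.61 (SE; adjusted p = 0.019) in mutALK and 0.10 in MYCN tumours. The mutALK call was lost without mutALK 1 or adrenal 3 (adjusted p up to 0.0693). Nrxn3, the remaining neurexin, was called in no comparison on its brightest probe set, with log2 differences between -0.26 and 0.27.

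Among the genes of membrane retrieval, Synj1, the phosphatase that uncoats endocytic vesicles, had small errors. Synj1 had log2 levels of 9.79, 10.25 and 10.33 in double transgenic, 10.65, 10.64 and 10.37 in mutALK and 9.14, 9.09, 9.03 and 9.20 in MYCN tumours, against 9.22, 9.90 and 9.16 in adrenal glands. The mutALK arrays lay above the double transgenic arrays and these above the MYCN arrays, and adrenal 1 and 3 lay close to the MYCN arrays. The log2 difference was 1.44 ± 0.18 (SE; adjusted p = 0.000207) for mutALK minus MYCN and 1.01 ± 0.18 (SE; adjusted p = 0.00625) for double transgenic minus MYCN tumours, both called under every alternative; over adrenal gland it was 1.13 in mutALK and 0.70 in double transgenic tumours, both called, and -0.31 in MYCN tumours. Dnm3, a dynamin that cuts vesicles from the membrane, was low in MYCN tumours. Dnm3 had log2 levels of 8.13, 8.34 and 7.82 in double transgenic, 8.06, 8.93 and 7.80 in mutALK and 6.71, 5.24, 5.47 and 5.58 in MYCN tumours, against 8.08, 9.47 and 7.00 in adrenal glands. All MYCN arrays lay below all others, and the other 3 groups overlapped. For Dnm3 the log2 difference was 2.52 ± 0.52 (SE; adjusted p = 0.00356) for mutALK minus MYCN, 2.35 ± 0.52 (SE; adjusted p = 0.0146) for double transgenic minus MYCN and -2.43 ± 0.52 (SE; adjusted p = 0.00205) for MYCN tumours minus adrenal gland, the second lost without double transgenic 2 (adjusted p = 0.0566). The second was also lost with the mean of all probe sets.

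Amph, amphiphysin, which bends the membrane and recruits dynamin, was the retrieval gene with the largest rise over adrenal gland in double transgenic and mutALK tumours. Amph had log2 levels of 9.08, 8.93 and 9.32 in double transgenic, 9.84, 9.85 and 9.56 in mutALK and 8.21, 8.03, 8.09 and 7.71 in MYCN tumours, against 6.57, 9.37 and 5.58 in adrenal glands. The mutALK arrays lay above the double transgenic and these above the MYCN arrays, and adrenal 2 lay just above the double transgenic range. Its log2 difference from adrenal gland was 1.94 ± 0.69 (SE; adjusted p = 0.0366) in double transgenic, 2.58 ± 0.69 (SE; adjusted p = 0.0102) in mutALK and 0.83 ± 0.65 (SE; adjusted p = 0.326) in MYCN tumours. The call in double transgenic tumours was lost without any 1 of the double transgenic arrays, adrenal 1 or adrenal 3 (adjusted p up to 0.146). Dnm1, the neuronal dynamin, was called over adrenal gland in mutALK tumours, with log2 differences of 1.41, 1.92 and 1.46 in double transgenic, mutALK and MYCN tumours and adjusted p of 0.0797, 0.0254 and 0.0545. The call was lost without mutALK 1, mutALK 2, adrenal 1 or adrenal 3 (adjusted p up to 0.102).

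**Figure D4:**
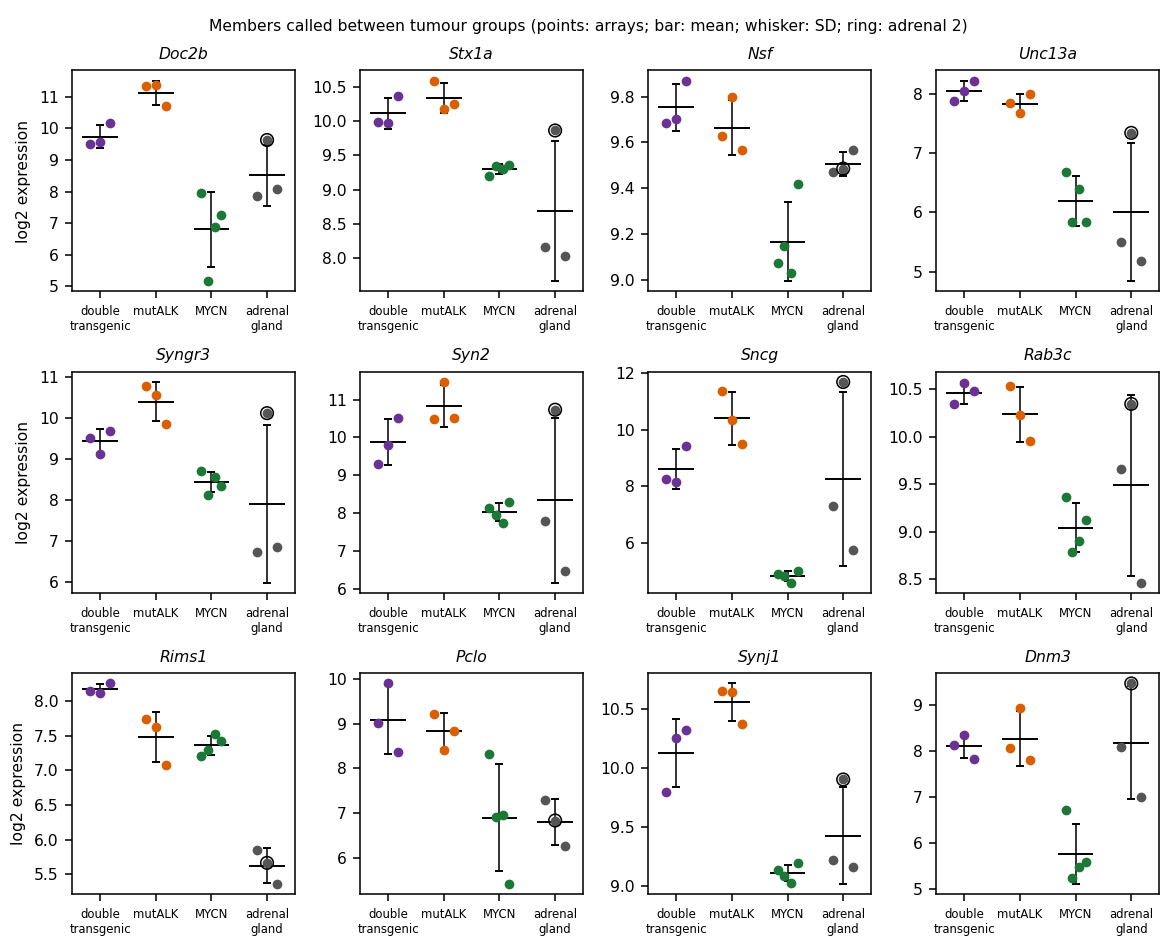
Log2 level of the 12 genes called between tumour groups in each array (points), with the group mean (bar) and SD (whisker) and a ring around adrenal 2. For all 12 genes but Rims1 the 4 MYCN tumours lie below the double transgenic and mutALK tumours.

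The brightest probe set stands for each gene, and 28 of the 36 genes had several (98 probe sets in all). No called gene had another probe set called in the opposite direction in the same comparison. For mutALK minus MYCN tumours another probe set was called the same way for 8 of 9 called genes that had one, for double transgenic minus MYCN tumours for 5 of 7, and for double transgenic minus mutALK tumours for 0 of 1. Over adrenal gland the counts were 7 of 13 in double transgenic, 10 of 17 in mutALK and 7 of 10 in MYCN tumours. Probe sets of the same gene differed from each other for several members, of which 3, picked after their values were seen, are described more fully. Among the others, the dimmer Vamp2 probe set was highest in MYCN tumours (mean log2 level of 6.60, against 5.78 in double transgenic and 6.26 in mutALK tumours). The dimmest Syt1 probe set had 5.72 in mutALK and 6.43 in MYCN tumours. The next brightest Rims2 probe set had 9.41 in double transgenic and 8.78 in mutALK tumours. Nrxn3 had 3 dimmer probe sets with far larger differences between tumours than the brightest, whose log2 difference was 0.27 for mutALK minus MYCN tumours. The brightest of these 3 had mean log2 levels of 6.78 ± 0.77 in double transgenic, 8.66 ± 0.84 in mutALK, 4.98 ± 0.25 in MYCN tumours and 5.17 ± 0.69 in adrenal glands (SD, n = 3, 3, 4 and 3). Its log2 difference was 3.68 ± 0.44 (SE; adjusted p = 0.000151) for mutALK minus MYCN and -1.89 ± 0.47 (SE; adjusted p = 0.0237) for double transgenic minus mutALK tumours. The other two had log2 differences of 3.48 and 4.12 for mutALK minus MYCN tumours and -2.20 and -2.37 for double transgenic minus mutALK tumours, all called. The dimmest probe set of Nrxn3 was called in no comparison, and which transcripts each one detects is not given in the sources used here. Syngr1 was read in opposite directions: its brightest probe set had a log2 difference of 0.82 ± 0.53 (SE; adjusted p = 0.296) for mutALK minus MYCN tumours, and the next brightest had -1.42 ± 0.29 (SE; adjusted p = 0.00376). For Pclo the other probe sets had log2 differences of 2.57 and 3.55 for mutALK minus MYCN tumours, both called, and the dimmest was lower in MYCN tumours than in adrenal gland, by -2.04 ± 0.55 as a log2 difference (SE; adjusted p = 0.00924), where the brightest had 0.10.

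**Figure D5:**
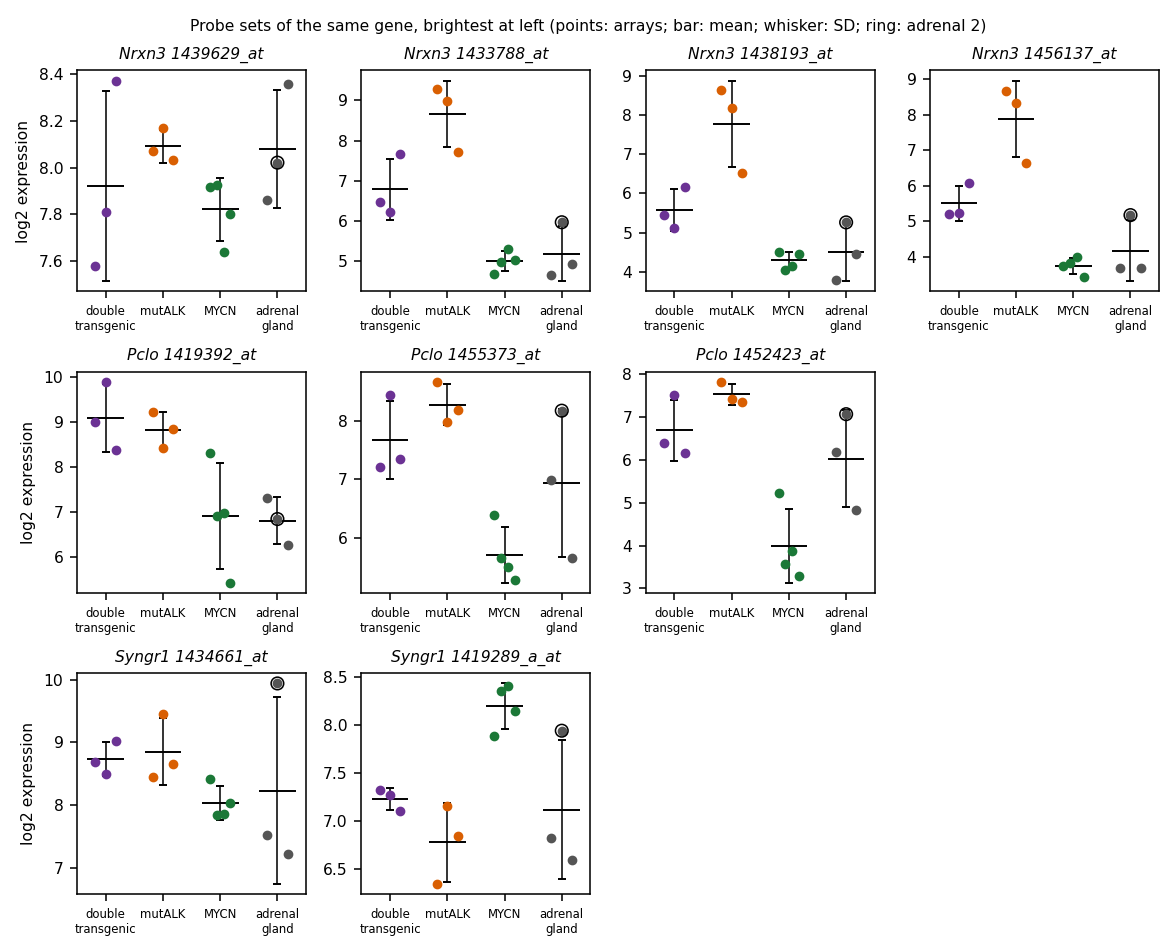
Log2 level in each array (points), with the group mean (bar) and SD (whisker), for probe sets of Nrxn3, Pclo and Syngr1, brightest at left, each on its own axis, with a ring around adrenal 2. The mutALK tumours lie above the MYCN tumours by log2 differences of 3.68, 3.48 and 4.12 in the 3 dimmer Nrxn3 probe sets and by 0.27 in the brightest.

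The wider machinery was covered by 96 measured genes of a list of 106 other vesicle and release genes. Of these, 38 (39.6%) were called higher and 21 (21.9%) lower than in adrenal gland in double transgenic tumours, where 24.3% and 24.2% of all genes were. In mutALK tumours 37 (38.5%) were higher and 16 (16.7%) lower, against 21.3% and 21% of all genes, and in MYCN tumours 25 (26%) each way, which is near the 25.3% and 24.8% of all genes. Between tumours 24 (25%) were higher and 9 (9.38%) lower in mutALK than in MYCN, against 13.6% and 17.2% of all genes, and 17 (17.7%) and 2 (2.08%) in double transgenic than in MYCN, against 6.16% and 6.66%. For double transgenic minus mutALK tumours the counts of 8 (8.33%) and 6 (6.25%) were near the 8.39% and 6.03% of all genes. Doc2a, the sister gene of Doc2b, did not follow Doc2b. Its mean log2 level was 9.12 ± 0.07 in double transgenic, 7.69 ± 0.14 in mutALK and 9.54 ± 0.10 in MYCN tumours, against 4.34 ± 0.54 in adrenal glands (SD, n = 3, 3, 4 and 3). Its log2 difference was -1.85 ± 0.20 (SE; adjusted p = 7.49e-05) for mutALK minus MYCN and 1.43 ± 0.21 (SE; adjusted p = 0.00288) for double transgenic minus mutALK tumours. Sytl4, the granule-docking protein granuphilin, and Lin7a, a presynaptic scaffold adaptor, were likewise higher in double transgenic than in mutALK tumours, with log2 differences of 1.59 and 1.77. Synpr, synaptoporin of the synaptophysin family, was low in MYCN tumours, at 4.38 ± 0.30 against 7.16 ± 0.53 in double transgenic and 8.44 ± 1.37 in mutALK tumours. Rab3d, a Rab3 of secretory granules, had a mean log2 level of 7.81 ± 0.48 in double transgenic, 9.17 ± 0.69 in mutALK and 6.28 ± 0.30 in MYCN tumours, against 9.84 ± 0.39 in adrenal glands. Its log2 difference was 2.89 ± 0.33 (SE; adjusted p = 0.000102) for mutALK minus MYCN tumours and -1.36 ± 0.35 (SE; adjusted p = 0.0269) for double transgenic minus mutALK tumours. The falls against adrenal gland included Vamp8 and Cadps2: Vamp8, an exocrine and endosomal SNARE, had a log2 difference of -3.56 in double transgenic tumours, and Cadps2, a dense-core vesicle priming factor, had -3.22 in mutALK and -3.51 in MYCN tumours.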

How the data were processed

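RNA of 10 tumours and 3 adrenal glands was measured on 13 Affymetrix arrays. The deposited values are on the log2 scale and were made with RMA and Partek, per the submitters' processing notes (no version given); they were used as deposited. Of 45101 probe sets, 34958 had 1 gene symbol, and names were checked against RefSeq genes of GRCm38.p6 (34754 probe sets matched, 0 symbols changed). Each gene is its probe set with the highest mean, which gave 18194 genes. A limma 3.58.1 model (lmFit and eBayes, R 4.3.3) with a mean for each group took in all 13 arrays and all genes (9 residual and 2.28 prior degrees of freedom). The 6 contrasts had two-sided tests with Benjamini-Hochberg adjustment across the 18194 genes, and an adjusted p under 0.05 made a call. No detection calls were used, and the number of arrays limits the precision. On simulated data 64% to 70% of changes of 1 log2 unit and 89% to 95% of changes of 2 were recovered, with 6 to 10 false calls. The changed genes were drawn from all genes, with independent noise of equal spread in every group and no outlying array. These rates therefore do not describe recovery for the 36 members. The members and lists were chosen with earlier results of these data known. All 36 members are named; arrays are given singly for members called between tumours and for the largest call per role against adrenal gland, and of the other list the 5 largest calls per contrast could be named. A total of 25 alternatives were run. Losses given with single genes are mainly those without 1 array, and a call may also be lost under other alternatives.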

Additional observations from a re-analysis of the deposited data

Results flagged for a closer look

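Within the 4 MYCN tumours, the group large enough for an outlier test, 2 of the 36 genes had an array whose gap to its nearest neighbour, divided by the group's range, was above Dixon's 95% critical value. Syt1 had a log2 level of 10.27 in MYCN 3, against 9.77 to 9.81 in the other MYCN tumours, with a gap of 0.928 of the range. Syn1 had a log2 level of 7.57 in MYCN 1, against 7.24 to 7.29 in the other MYCN tumours, with a gap of 0.858 of the range. By chance about 1 in 20 groups passes this test.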

How the results depend on the processing

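No paired analysis was possible because the groups share no replicate numbers in the labels. Counts are genes of the 36 called higher or lower. The share of all genes called is not given for array weights, averaged title numbers or the title number as a random block. Nor is it given for the mean of all probe sets or for only the arrays of both groups compared. Those counts therefore have no baseline among all genes. With array weights 29 were higher in double transgenic tumours and 21 in MYCN tumours than in adrenal gland, and 24 in mutALK than in MYCN tumours. The weights were 0.182 for adrenal 2 and 5.608 for adrenal 1, so adrenal 2 counted little in this setting. With arrays that share a title number averaged, 3 were lower in MYCN tumours than in adrenal gland, 0 higher in double transgenic than in mutALK tumours, and 5 higher in double transgenic and 5 in mutALK than in MYCN tumours. The mutALK minus MYCN calls lost in this way were those of Pclo, Rab3c, Stx1a, Syn2, Syngr3 and Unc13a. The double transgenic minus MYCN calls lost were those of Pclo, Rab3c, Sncg and Unc13a. With the mean of all probe sets, 0 were higher and 2 lower in double transgenic tumours than in mutALK ones, and with the title number as a random block (correlation 0.457) 0 were higher. With only the arrays of both groups compared, 9 were higher in double transgenic and 11 in mutALK tumours than in adrenal gland, 3 lower in MYCN tumours than in adrenal gland, 0 higher and 2 lower in double transgenic tumours than in mutALK ones, and 19 and 27 higher in double transgenic and mutALK than in MYCN tumours. With only the 10 tumour arrays, 2 were higher and 6 lower in double transgenic tumours than in mutALK ones, and 20 and 24 higher in double transgenic and mutALK than in MYCN tumours. Without the 5 arrays with high liver transcripts, which leaves 1 mutALK array that is assumed to vary like the other groups, 29 were higher in double transgenic and 22 higher and 3 lower in MYCN tumours than in adrenal gland, and 0 higher and 1 lower in double transgenic tumours than in mutALK ones. Leaving out 1 array at a time gave 10 to 30 higher and 0 to 1 lower in double transgenic tumours than in adrenal gland, 15 to 30 and 0 to 1 in mutALK, and 5 to 21 and 3 to 5 in MYCN tumours. Between tumours it gave 0 to 2 higher and 0 to 4 lower in double transgenic tumours than in mutALK ones, 4 to 19 higher in double transgenic and 7 to 24 in mutALK than in MYCN tumours, with 0 lower; the highest counts came without adrenal 2. One gene reversed: Syngr1 in MYCN tumours minus adrenal gland, -0.19 with all arrays and not called, was 0.73 without the 5 liver arrays (adjusted p = 0.038). The calls held under every alternative for 8 of 18 genes in double transgenic, 9 of 23 in mutALK and 7 of 12 in MYCN tumours against adrenal gland, for 0 of 1 between double transgenic and mutALK tumours, and for 3 of 9 double transgenic and 4 of 11 mutALK against MYCN tumours. The cause of these shifts was not tested. Array signal gives no floor for unexpressed genes here, so differences of dim genes may be understated.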
